A study of Mus musculus with 6 samples.

Results

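The BCL2 family decides whether a stressed cell keeps its mitochondria intact or releases cytochrome c and dies. Guardians such as BCL2, BCL-XL and MCL1 hold the pore-forming effectors BAX and BAK in check, and the BH3-only proteins, among them BID, PUMA, NOXA and BIM, relieve that restraint or activate the effectors directly. In the gut this balance governs the loss of crypt cells after DNA damage and ER stress, whereas most epithelial cells at the surface are lost by shedding. Several members are controlled after transcription, MCL1 through its short protein half-life and BAX, BAK and BID by activation of existing protein, so mRNA levels are only 1 layer of the system.

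Here 10 genes of the family were followed, chosen by name as pro- and anti-apoptotic members: Bcl2, Bcl2l1, Mcl1, Bax, Bak1, Bid, Bbc3, Pmaip1, Bcl2l11 and Bcl2l15. All 10 were found among the 24517 genes of the count tables, and 9 passed the filter on low counts. Bcl2l15 did not pass it. Colon RNA had been sequenced in 3 libraries of Nsd2fl/fl mice, which carried the floxed Nsd2 gene intact, and 3 libraries of Nsd2ΔIE mice, in which Nsd2 had been deleted in the intestinal epithelium by Villin-Cre. The methods of the study give a C57BL/6J background, and mice of both groups were on HFCD, a diet rich in fat and cholesterol, which the labels put at 16 weeks and the text of the study at a longer time. NSD2 methylates histone H3 at lysine 36. Nothing in the labels says how many animals stood behind a library, and the p-values measure the spread between these libraries only.

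Certain features of the libraries bear on every value below. Totals ranged from 38041832 to 38604680 counts. Nsd2 stood at 47.8, 59.1 and 68.9 CPM (counts relative to the library total, scaled by TMM factors) in Nsd2fl/fl and at 24.5, 23.1 and 27.5 CPM in Nsd2ΔIE, so the targeted gene went with the labels, and part of its level in the whole tissue remained. Xist was at 4 counts or fewer in 3 of 3 Nsd2fl/fl libraries and high in 3 of 3 Nsd2ΔIE libraries, and 4 of 4 Y-linked genes had reads in Nsd2fl/fl and at most 1 count in Nsd2ΔIE. The methods describe male littermates, which the Nsd2ΔIE libraries go against, and genotype and sex cannot be told apart. Along the first principal component of all genes, with 51.03% of the variance, negative scores belonged to replicates 1 and 3 of Nsd2fl/fl and replicate 1 of Nsd2ΔIE and positive ones to the other 3 libraries. Hoxb13, a gene of the most distal gut, had 365, 340.5 and 310.01 CPM in the former and at most 26.2 CPM in the latter. The labels say colon and give no segment. The epithelial markers Epcam and Cdx2 were present in every library, with Epcam at 1233 CPM or more. By CPM Epcam was lower in every Nsd2ΔIE library (log2 fold change -0.26, adjusted p = 0.639). In the deposited values scaled by gene length and library total its groups overlapped, with 693 in Nsd2ΔIE replicate 1 and 662 in Nsd2fl/fl replicate 3.

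The members covered a wide range of levels and promoter types. Promoter sequences came from RefSeq, on GRCm38.p6, the build that the processing notes call mm10. They were taken for 9 members and comprised 14 windows of 300 bases. The promoter of Pmaip1 was not examined, and the counts of windows and members below leave it out. The promoters of Mcl1, Bak1 and Bcl2l15 are shown because these genes bracket the levels described next, from the most abundant guardian and effector to the member with almost no reads. Capitals mark CpG dinucleotides, which are dense at the starts of many widely used genes.
Mcl1, chr3:95658471-95658770, plus strand: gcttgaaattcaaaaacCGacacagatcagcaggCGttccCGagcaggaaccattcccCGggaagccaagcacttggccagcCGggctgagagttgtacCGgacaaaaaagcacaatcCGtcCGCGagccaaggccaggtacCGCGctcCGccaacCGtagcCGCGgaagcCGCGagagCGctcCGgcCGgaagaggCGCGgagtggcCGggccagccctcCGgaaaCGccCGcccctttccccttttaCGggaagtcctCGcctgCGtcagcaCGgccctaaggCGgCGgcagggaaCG
Bak1, chr17:27028578-27028877, minus strand: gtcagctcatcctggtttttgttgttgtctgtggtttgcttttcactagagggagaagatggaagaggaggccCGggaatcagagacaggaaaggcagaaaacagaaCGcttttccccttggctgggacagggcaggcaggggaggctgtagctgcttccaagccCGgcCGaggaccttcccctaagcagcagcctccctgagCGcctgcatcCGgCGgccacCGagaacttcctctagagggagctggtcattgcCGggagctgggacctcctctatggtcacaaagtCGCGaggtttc
Bcl2l15, chr3:103832446-103832745, plus strand: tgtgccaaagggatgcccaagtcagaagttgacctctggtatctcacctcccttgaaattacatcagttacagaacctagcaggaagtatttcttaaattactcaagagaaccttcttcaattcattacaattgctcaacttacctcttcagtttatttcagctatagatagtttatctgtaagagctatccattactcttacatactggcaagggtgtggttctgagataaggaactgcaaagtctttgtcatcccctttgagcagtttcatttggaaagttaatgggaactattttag
The Mcl1 window held 33 CpG, the Bak1 window 11 and the Bcl2l15 window 0, against a median of 7 over the 32851 windows of the table. A window with 0 CpG was found in 5.43% of all windows. The letters GGGCGG, the GC box searched on both strands, occurred in 9 of the 14 windows, belonging to 6 members, and in 35.7% of all windows. Bcl2, with 44 CpG and 7 GC boxes, had the most CpG of the 14 windows. No GC box was found in the windows of Bak1 and Bcl2l15 or in any of the 3 windows of Bcl2l1. These are descriptions of the letters in the windows, and no binding was measured.

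Per length, the effectors and Mcl1 stood far above the rest. In FPKM, the deposited value scaled by gene length and library total, Bak1 had a mean of 76.06 ± 13.9 (SD over the 6 libraries), Bax 43.7 ± 3.48 and Mcl1 41.7 ± 8.2. Bcl2l1, which encodes BCL-XL, followed with 10.5 ± 1.17 FPKM and Bid with 7.92 ± 0.435 FPKM. Pmaip1 had 5.14 ± 1.71 FPKM, Bcl2 3.56 ± 0.66, Bcl2l11 1.73 ± 0.467 and Bbc3 1.59 ± 0.334. Bcl2l15 had 0.065 ± 0.0903 FPKM. The ranges over libraries overlapped between the neighbours Bax and Mcl1, Bid and Pmaip1, Pmaip1 and Bcl2, and Bcl2l11 and Bbc3, and were apart for the other 5 neighbouring pairs.

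The place of Mcl1 in this order rested on the gene length behind the FPKM values. That length, recovered from each pair of count and FPKM, was 8725 bases for Mcl1, longer than its whole gene in GENCODE M21 (4389 bases) and 2.55 times its exons there (3418 bases). With the GENCODE exon lengths, a choice made after seeing the data, Mcl1 moved from rank 3 to rank 1, with 106.3 ± 20.9 FPKM, ahead of Bak1 with 63.3 ± 11.6 and Bax with 26.1 ± 2.07. Bbc3 moved from rank 9 to rank 7, with 2.99 ± 0.629 FPKM. Bcl2l1, Bid, Pmaip1 and Bcl2l15 kept ranks 4, 5, 6 and 10. The lowest Mcl1 value on the GENCODE scale, 82.7 FPKM, lay above the highest Bak1 value, 80.9 FPKM, whereas on the deposited scale the lowest Bak1 value, 60.4 FPKM, lay above the highest Mcl1 value, 53.3 FPKM. Comparisons of 1 gene between libraries do not depend on its length.

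**Figure D1:**
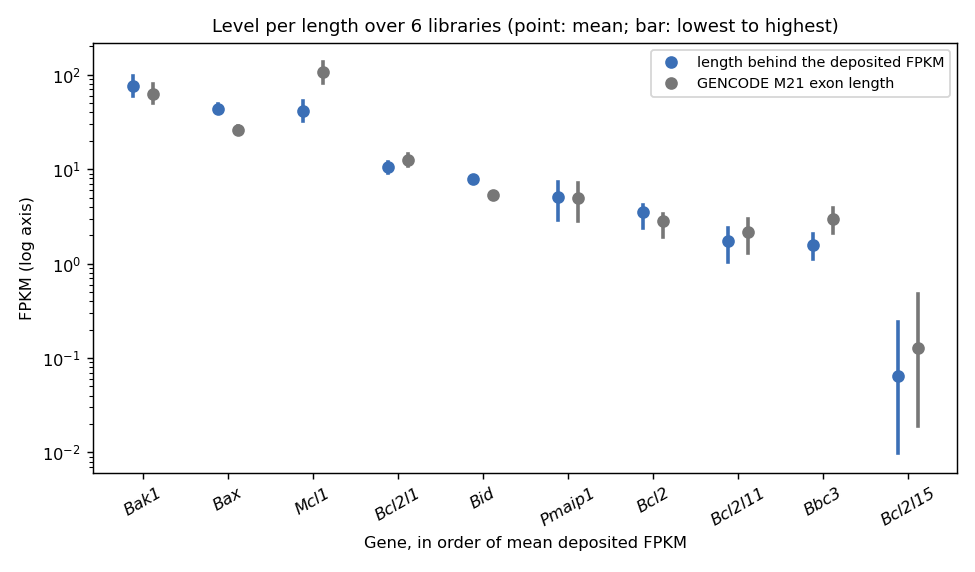
Level of the 10 BCL2 family genes per length, in FPKM on a log axis, ordered by mean deposited FPKM. Points are means over the 6 libraries and bars run from the lowest to the highest library. Blue uses the length behind the deposited values and grey the GENCODE M21 exon length, with which Mcl1 moves from 41.7 to 106.3 FPKM and above Bak1.

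The question for the genotypes was whether loss of NSD2 in the epithelium went with a shift of this family in the colon. At an adjusted p under 0.05, 0 of the 9 tested members differed, beside 0.0306% of all 16347 genes. The 5 genes of that share were Xist and 4 Y-linked genes, and the targeted gene Nsd2 did not pass either (log2 fold change -1.23, unadjusted p = 0.000133, adjusted p = 0.302). The study called genes at an unadjusted p below 0.05 and a log2 fold change beyond 0.32 in size. By that rule 0 members were lower (2.21% of all genes) and 0 were higher (8.05%), against 10.3% of all genes in either direction. The unadjusted p was under 0.05 for 0 members (11.1% of all genes), and DESeq2 also gave 0 members at an adjusted p under 0.05. The smallest unadjusted p was 0.0922, for Bid. The median log2 fold change (Nsd2ΔIE over Nsd2fl/fl) was -0.16 over the 9 members and -0.041 over all genes tested. With library totals in place of TMM factors, which moved the median of all genes by 0.127, 6 members were below 0 in place of 8. The count was 5 with log2(FPKM + 1), with log2(FPKM + 0.1) and when Nsd2fl/fl replicate 2 was left out. It rose to 10, with Bcl2l15 in the fit, when no filter on low counts was used and when Nsd2fl/fl replicate 1 or Nsd2ΔIE replicate 3 was left out. Without Nsd2ΔIE replicate 1 it was 9. The values of each member follow, by role, in CPM unless stated.

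Of the guardians, Bcl2, the founding member (chromosome 1, 106538178 to 106714274, minus strand), had 27.5, 19.2 and 32.5 CPM in Nsd2fl/fl replicates 1 to 3 and 29.2, 22.6 and 25.6 CPM in Nsd2ΔIE replicates 1 to 3. All 3 Nsd2ΔIE libraries lay between the lowest and the highest Nsd2fl/fl library. The log2 fold change was -0.034 (95% interval -0.54 to 0.47, adjusted p = 0.962). Bcl2l1 (chromosome 2, 152780668 to 152831728, minus strand), the main guardian of many epithelial cells, had 49.7, 71.8 and 54.3 CPM in Nsd2fl/fl and 54.7, 59.5 and 57.3 CPM in Nsd2ΔIE. Its Nsd2ΔIE libraries clustered around 57.2 ± 2.39 CPM, and only Nsd2fl/fl replicate 2 stood clearly above the others. Between the genotypes its log2 fold change was -0.034 (95% interval -0.4 to 0.33, adjusted p = 0.946). Mcl1 (chromosome 3, 95658788 to 95663176, plus strand), the short-lived guardian, had 427, 359 and 386 CPM in Nsd2fl/fl and 452, 275 and 285 CPM in Nsd2ΔIE. Nsd2ΔIE replicates 2 and 3 were the lowest of all 6 libraries and replicate 1 the highest. Its fitted change was -0.21 on the log2 scale (95% interval -0.73 to 0.31, adjusted p = 0.751). Without Nsd2ΔIE replicate 1 it was -0.47 (unadjusted p = 0.0272, adjusted p = 0.371), without replicate 2 it was -0.083 (adjusted p = 0.965) and without replicate 3 it was -0.10 (adjusted p = 0.99).

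Of the effectors, Bax (chromosome 7, 45461697 to 45466898, minus strand) was the most even member, with 37.2, 41.03 and 44.4 CPM in Nsd2fl/fl and 42.9, 38.8 and 42.3 CPM in Nsd2ΔIE. The group means were 40.9 ± 3.62 and 41.3 ± 2.17 CPM (SD, n = 3 per group). The fitted fold was 1.01, with a 95% interval of 0.843 to 1.21, the only interval among the 9 members that lay wholly within the fold threshold of the study in both directions. Bak1 (chromosome 17, 27019810 to 27029009, minus strand) had 119.5, 210.9 and 152 CPM in Nsd2fl/fl and 123, 165 and 147.6 CPM in Nsd2ΔIE. Replicate 1 of both groups was lowest and replicate 2 of both groups highest. The fitted log2 change was -0.15 (95% interval -0.68 to 0.39, adjusted p = 0.834). It stood at 0.10 without Nsd2fl/fl replicate 2 and at -0.32 without Nsd2fl/fl replicate 1.

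Of the BH3-only genes, Bid (chromosome 6, 120891930 to 120916853, minus strand), whose product is cut by caspase-8 and links death receptors to mitochondria, had 18.9, 21.3 and 21.8 CPM in Nsd2fl/fl and 17.0, 18.7 and 16.8 CPM in Nsd2ΔIE. It was the single member whose groups did not overlap by TMM-scaled CPM, and 7.28% of all genes tested were likewise lower in every Nsd2ΔIE library. By deposited FPKM its groups overlapped, with 7.97 in Nsd2fl/fl replicate 1 and 8.01 in Nsd2ΔIE replicate 2. Nsd2ΔIE replicate 2 and Nsd2fl/fl replicate 1 nearly touched. The log2 fold change was -0.24 (SE 0.122, 95% interval -0.53 to 0.051, adjusted p = 0.53), a mean of 17.5 against 20.7 CPM. The exons of Bid share 628 bases with those of Bcl2l13 on the opposite strand, and the strand setting of the counting was not given in the sources used here. Bcl2l13 itself had a log2 fold change of -0.14 (adjusted p = 0.659). Of the members above, Bak1 shares 177 and 437 exon bases with gene entries named Ggnbp1 on the opposite strand. Bax shares 192 with Gm45808 on the same strand, and Bcl2 558 with the antisense gene D630008O14Rik.

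Bbc3, which encodes PUMA, a p53 target (chromosome 7, 16308393 to 16318205, plus strand), had 8.08, 7.26 and 4.75 CPM in Nsd2fl/fl and 6.28, 6.91 and 4.84 CPM in Nsd2ΔIE. Replicate 3 was the lowest in both groups. Its fitted change was -0.16 on the log2 scale (95% interval -0.77 to 0.46, adjusted p = 0.843). Pmaip1, which encodes NOXA, the partner of MCL1, had 16, 13.7 and 17.4 CPM in Nsd2fl/fl and 19.05, 9.13 and 7.13 CPM in Nsd2ΔIE. As for Mcl1, Nsd2ΔIE replicates 2 and 3 were the lowest libraries and replicate 1 the highest. The log2 fold change was -0.42 (SE 0.363, 95% interval -1.28 to 0.45, adjusted p = 0.709). Without Nsd2ΔIE replicate 1 it was -0.94 (unadjusted p = 0.00453, adjusted p = 0.253), without replicate 2 it was -0.26 (adjusted p = 0.932) and without replicate 3 it was -0.16 (adjusted p = 0.99). Bcl2l11, which encodes BIM, the BH3-only protein that sets the survival of many lymphocytes (chromosome 2, 128126038 to 128162547, plus strand), had 19.7, 25.8 and 11.1 CPM in Nsd2fl/fl and 14.9, 18.2 and 14.0 CPM in Nsd2ΔIE. The Nsd2fl/fl libraries held both the lowest and the highest value and enclosed the Nsd2ΔIE values. The fitted log2 change was -0.26 (95% interval -0.98 to 0.45, adjusted p = 0.774). Without Nsd2fl/fl replicate 3 it was -0.53 (unadjusted p = 0.0299, adjusted p = 0.542), and without Nsd2fl/fl replicate 2 it was 0.023.

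Bcl2l15, also called Bfk, a less studied family member (chromosome 3, 103832601 to 103854618, plus strand), had 5, 49 and 5 counts in Nsd2fl/fl and 2, 16 and 2 counts in Nsd2ΔIE. Replicate 2 of each group held most of the reads. The exact Poisson 95% interval of the 49 counts was 36.3 to 64.8 and that of the 16 counts 9.15 to 26, so these 2 intervals were apart. Nsd2fl/fl replicates 1 and 3 had upper bounds of 11.7, so the interval of the 16 counts overlapped theirs. Nsd2ΔIE replicates 1 and 3 had upper bounds of 7.22, so it lay above those of the rest of its own group. The interval of the 49 counts lay above all of these. These intervals cover counting error only. With no filter on low counts the log2 fold change was -1.73 (SE 1.15, unadjusted p = 0.169), and the replicates of each group differed by more than these counting intervals. The exons share 569 bases with those of the gene model Gm43064 on the same strand.

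**Figure D2:**
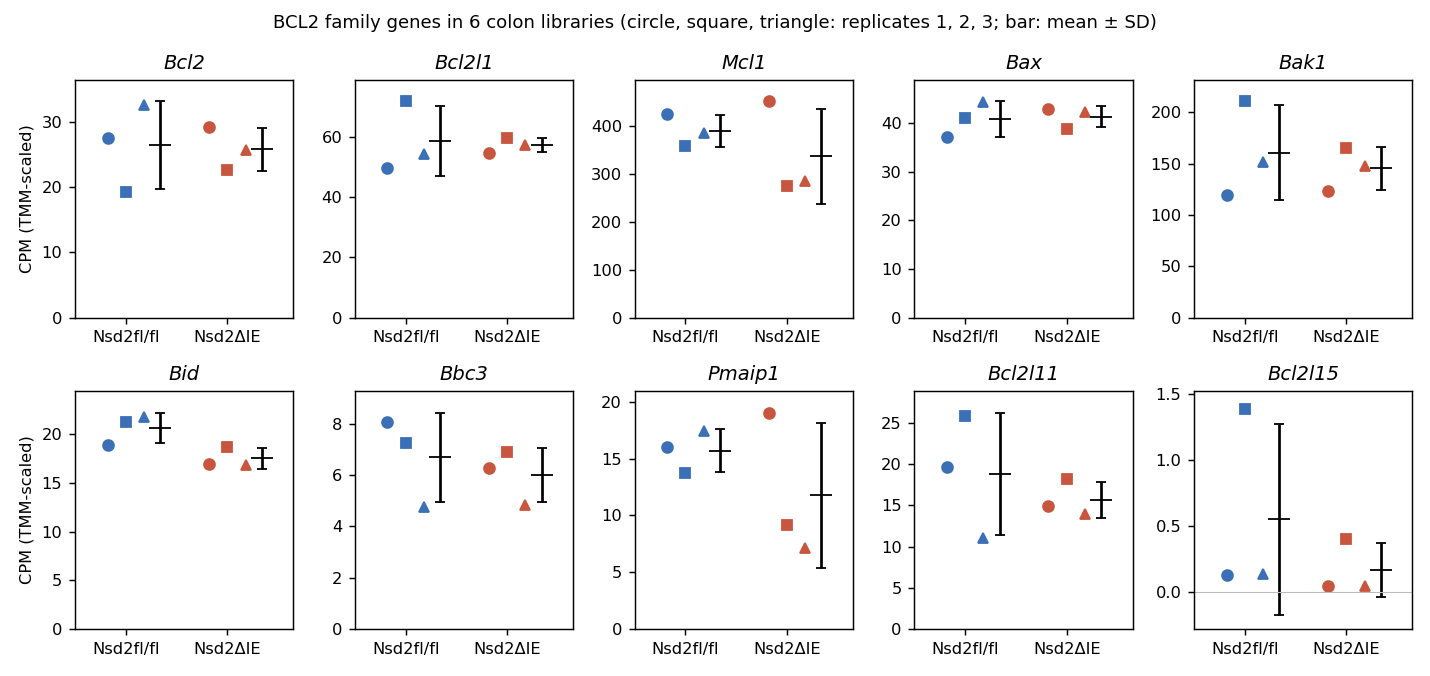
CPM of the 10 BCL2 family genes in each library, 1 panel a gene, with the Nsd2fl/fl libraries in blue and the Nsd2ΔIE libraries in red. Symbols stand for replicates 1 to 3 and black bars for the mean ± SD of 3 libraries. The groups overlap in every panel but that of Bid, where the Nsd2ΔIE libraries reach 18.7 CPM and the lowest Nsd2fl/fl library has 18.9 CPM.

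**Figure D3:**
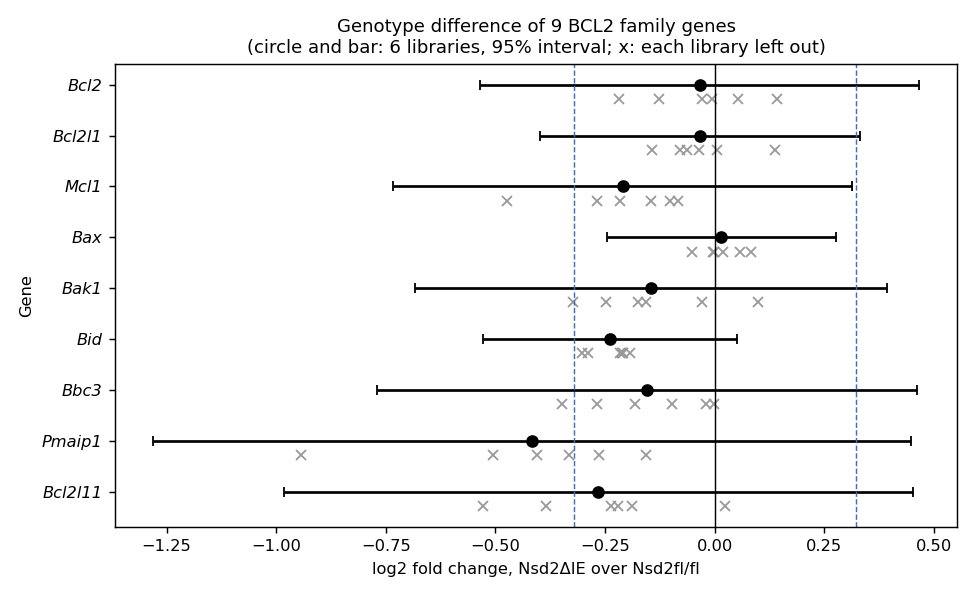
Log2 fold change of the 9 tested genes, Nsd2ΔIE over Nsd2fl/fl, with 95% intervals as bars. Crosses show the fits that each left out 1 library, and dashed lines mark the fold threshold of the study, 0.32 on the log2 scale. All 9 intervals include 0, Bax has the narrowest (-0.25 to 0.28) and Pmaip1 the widest (-1.28 to 0.45).

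Ratios of 2 members within a library do not depend on the scaling between libraries. They were taken from counts without correction for gene length. They therefore compare the balance of guardians and effectors between libraries and do not say which member is more abundant. The ratio of Bcl2 to Bax counts in the Nsd2fl/fl libraries was 0.74, 0.468 and 0.732, and in the Nsd2ΔIE libraries it was 0.68, 0.582 and 0.607. The mean log2 ratios were -0.66 ± 0.377 and -0.69 ± 0.117 (SD, n = 3 per group). The ratio of Mcl1 to Bax counts in the Nsd2fl/fl libraries was 11.5, 8.75 and 8.69, and in the Nsd2ΔIE libraries it was 10.6, 7.09 and 6.75, a difference of -0.26 in mean log2 ratio, with replicate 1 highest in both groups. The ratio of Mcl1 to Bak1 counts ranged from 1.67 to 3.67, and the low and the high end were both Nsd2ΔIE libraries. For all 6 ratios of Bcl2, Bcl2l1 or Mcl1 to Bax or Bak1 the groups overlapped. Summed by role, the 4 BH3-only genes had 18.1, 17.03 and 16.8 FPKM in Nsd2fl/fl and 17.8, 15.2 and 13.3 FPKM in Nsd2ΔIE, and the 2 effectors 100.5, 138 and 115 FPKM against 110.2, 127 and 128 FPKM. Bcl2, Bcl2l1 and Mcl1 together had 62.4, 52.4 and 54.7 FPKM against 67.6, 46.6 and 50.3 FPKM. On the deposited scale these guardians thus lay below the effectors. With GENCODE exon lengths they lay above them, with means of 124.6 against 88.2 FPKM in Nsd2fl/fl and 119 against 90.5 FPKM in Nsd2ΔIE. No test was made on these sums and ratios, since the members were chosen with earlier results of these libraries known.

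Along the first principal component 4 members fell into separate ranges (22.4% of all genes tested). Between the genotypes 1 member did (18.7% of all genes tested, in either direction). Mcl1, Pmaip1 and Bcl2 were higher in each of the 3 libraries of negative score, the libraries with high Hoxb13, than in each of the 3 of positive score. Pmaip1 ranged from 16 to 19.05 CPM in the former and from 7.13 to 13.7 CPM in the latter, Mcl1 from 386 to 452 and from 275 to 359 CPM, and Bcl2 from 27.5 to 32.5 and from 19.2 to 25.6 CPM. Bcl2l1 ran the other way, from 49.7 to 54.7 CPM at negative and from 57.3 to 71.8 CPM at positive scores. The sets were thus apart for 4 of the 9 tested members and for 22.4% of all genes tested. The members are among the genes from which the component was computed, so no test was made.

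Within these sets the genotypes could be set side by side, with 1 library standing for a genotype each time. At negative scores (1 Nsd2ΔIE library and 2 Nsd2fl/fl libraries), Nsd2ΔIE differed on the log2 scale by 0.19 for Pmaip1 and 0.15 for Mcl1. At positive scores (2 Nsd2ΔIE libraries and 1 Nsd2fl/fl library) it was -0.75 for Pmaip1 and -0.36 for Mcl1. Bcl2l1 gave 0.075 and -0.30, and Bcl2, the other way, -0.042 and 0.33. Bak1 gave -0.14 and -0.43, Bcl2l11 -0.046 and -0.68, and Bbc3 -0.029 and -0.30. The differences between the sets were not tested. Bid gave -0.26 in both sets, and Bax 0.071 and -0.017. With the sign of the component as a covariate in the fit of all 6 libraries, the log2 fold change was -0.28 for Pmaip1, -0.10 for Mcl1, -0.26 for Bid and -0.29 for Bak1. The smallest unadjusted p of a member was then 0.0951, for Bak1.

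**Figure D4:**
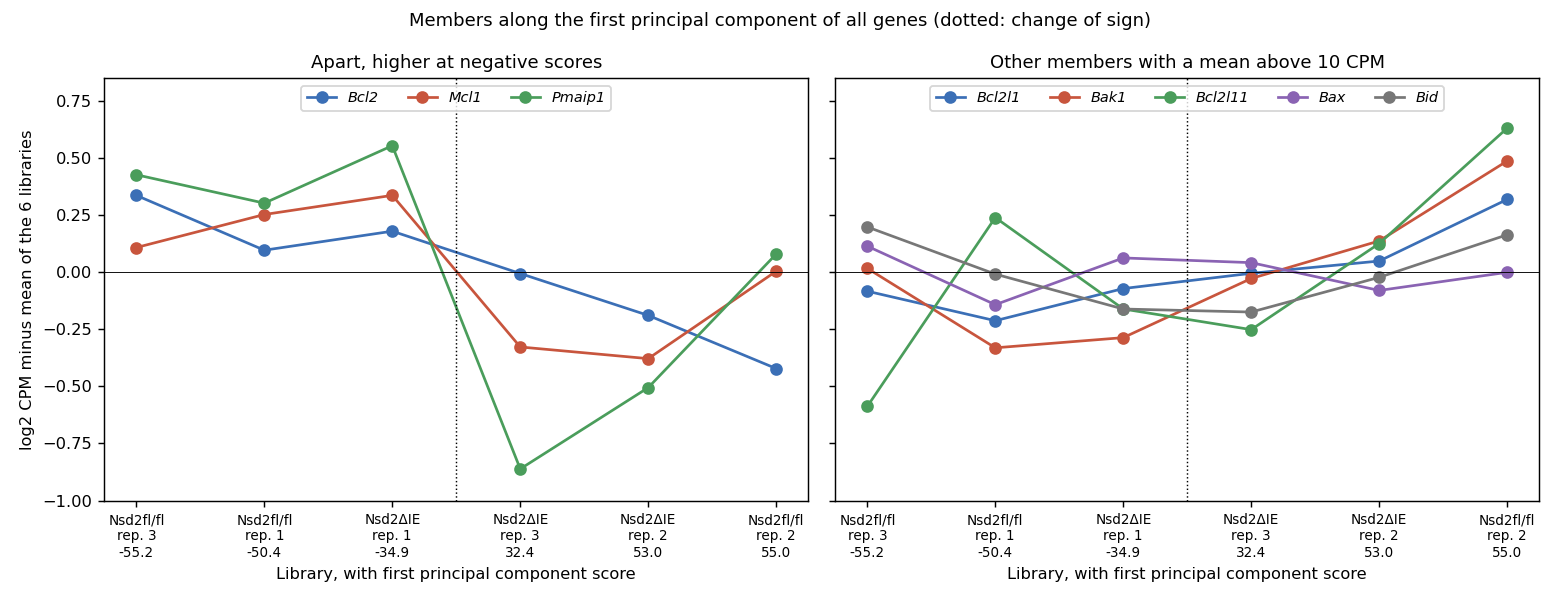
Log2 CPM of 8 members minus their mean over the 6 libraries, with the libraries ordered by their score on the first principal component (under each name). The left panel holds Bcl2, Mcl1 and Pmaip1, which lie higher in the 3 libraries of negative score, and the right panel Bcl2l1, Bak1, Bcl2l11, Bax and Bid. Bax stays closest to its mean, between 37.2 and 44.4 CPM.

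Cell makeup also varied between the libraries. In bulk tissue, fewer cells of a type and less RNA per cell cannot be told apart. Summed markers of smooth muscle (8 of 8 tested) ranged from 1379 to 4016 CPM in Nsd2fl/fl and from 5001 to 10719 CPM in Nsd2ΔIE, with 6 genes higher past the threshold of the study. All 8 enteric neuron markers were higher past it, at 60.6 to 119 CPM against 152 to 187 CPM summed. The 8 adipocyte markers summed to 25.6 to 34.1 CPM in Nsd2fl/fl and to 53.5 to 121.5 CPM in Nsd2ΔIE, with 4 of the 7 tested genes higher. The 12 epithelial markers summed to 14198 to 23186 CPM and to 13610 to 15400 CPM, with 1 gene, Elf3, lower past the threshold. Of these 12 genes 11 were below 0 and 4 lower without overlap, with a median of -0.28, beside -0.24 for Bid. B and plasma cell markers, from cells in which Bcl2, Mcl1 and Bcl2l11 set survival, summed to 1686, 1272 and 2447 CPM in Nsd2fl/fl. They summed to 1540, 1056 and 1152 CPM in Nsd2ΔIE, so the 3 libraries of negative score were again the highest. Bcl2 and Mcl1 were also higher in those libraries. Bcl2l11 overlapped between the sets and was lowest, at 11.1 CPM, in Nsd2fl/fl replicate 3, where these markers were highest. T cell markers ran the other way. They summed to 36.1, 55.6 and 32.7 CPM in Nsd2fl/fl and to 38.2, 55.3 and 52.7 CPM in Nsd2ΔIE, lowest in the libraries of negative score. Neutrophil markers, from cells that depend on MCL1, summed to 119, 36.8 and 190.9 CPM in Nsd2fl/fl and to 115, 5.27 and 12.1 CPM in Nsd2ΔIE. Like the B and plasma cell markers, they were highest in the 3 libraries of negative score, and only 3 of these 8 genes passed the filter on low counts. Goblet cell markers showed the same order at far higher levels, with 38018, 28185 and 49437 CPM in Nsd2fl/fl against 30770.1, 19678 and 25286 CPM in Nsd2ΔIE. Of 8 fibroblast markers 3 were higher past the threshold (8.05% of all genes), but 4 were fitted below 0 and 4 above, with a median of 0.0012. Their sums overlapped, at 1440 to 1725 CPM in Nsd2fl/fl and 1514 to 1729 CPM in Nsd2ΔIE. Colonocyte markers summed to 3250, 12440 and 3442 CPM in Nsd2fl/fl and to 5088, 11438 and 6806 CPM in Nsd2ΔIE. The sums were highest in the replicates 2, which also held most Bcl2l15 reads. Much of these sums was Car1, with 7837 and 8057 CPM in replicate 2 of Nsd2fl/fl and Nsd2ΔIE. Slc26a3, of the same list, was lowest in replicate 2 of both groups, at 298 and 319 CPM. The part of these cells in the members' levels was not tested.

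By the closeness of their pattern over the 6 libraries, the genes nearest to Pmaip1 and Bcl2l15, the members with the widest ranges, were listed. The measure was the root mean square difference of centred log2 CPM. For Pmaip1, which spanned 1.41 on the log2 scale, these were Gm17197, Clic5 and Pyy, with differences of 0.127, 0.148 and 0.156. Pyy encodes peptide YY, a hormone of enteroendocrine cells of the lower gut. For Bcl2l15, which spanned 3.84, they were Ifit1bl2, Gm11437 and Ikzf2, with differences of 0.477, 0.534 and 0.616.

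Around the family, 6 lists of 76 further genes covered other BCL2 relatives, the apoptosome and caspases, death receptors, p53 and its targets, the arm from ER stress to apoptosis and mitochondrial partners of BAX and BAK. Of the 73 tested genes, 0 had an adjusted p under 0.05, 3 were lower past the threshold of the study (2.21% of all genes) and 1 was higher (8.05% of all genes). Fitted changes were below 0 for 53 genes and above 0 for 20, with a median log2 fold change of -0.12. Over all genes 56.3% were below 0, with a median of -0.041. With library totals alone 33 of the 73 were below 0 (median 0.0048), beside 35.04% of all genes (median 0.086). The sign of the list median turned with the scaling, and with either scaling it lay below the median of all genes. The groups did not overlap for 11 lower genes (7.28% of all genes tested) and 4 higher genes (11.4% of all genes tested).

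Of the genes past the threshold that are described here, Casp12 had the largest change. It encodes caspase-12, a rodent caspase held at the ER, and stood at 9.32, 7.63 and 9.94 CPM in Nsd2fl/fl and at 13.5, 17.8 and 19.4 CPM in Nsd2ΔIE. All Nsd2ΔIE libraries lay above all Nsd2fl/fl libraries, and replicate 3 of Nsd2ΔIE was highest, as for the smooth muscle markers. On the log2 scale it was 0.92 higher (SE 0.191, unadjusted p = 0.00216, adjusted p = 0.302). DESeq2 gave an adjusted p of 0.0051, and over the 16 alternatives the values ran up to 0.99. The part of smooth muscle and other cells in this difference was not tested. Bcl2l14, which encodes BCL-G, a relative expressed in gut epithelium, had 86.1, 79.3 and 84.2 CPM in Nsd2fl/fl and 76.5, 56.8 and 52.9 CPM in Nsd2ΔIE. Its libraries did not overlap by CPM, with Nsd2ΔIE replicate 1 nearest to the controls. By deposited FPKM they overlapped, with 32.4 in Nsd2ΔIE replicate 1 and 30.2 in Nsd2fl/fl replicate 2. Its fitted change was -0.42 on the log2 scale (SE 0.155, adjusted p = 0.401). Ern1, which encodes the ER stress sensor IRE1, had 74.2, 55.3 and 60.9 CPM in Nsd2fl/fl and 56.3, 38.4 and 42.6 CPM in Nsd2ΔIE. Its groups overlapped, and its change was -0.47 on the log2 scale (SE 0.182, adjusted p = 0.42). Upper-quartile factors in place of TMM left 1 of the 4 past the threshold. Bcl2l14 and Ern1 each passed it in 8 of the 16 alternatives, and Casp12 in 16.

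The p53, death receptor and mitochondrial lists gave 0 genes past the threshold. With TMM factors, 11 of 13 p53 genes (5 with library totals alone) had fitted changes below 0, with a median of -0.12, and Trp53 itself had -0.13 (adjusted p = 0.715). Cdkn1a, the p53-induced cell cycle inhibitor, had 237, 240 and 211 CPM in Nsd2fl/fl and 225, 158 and 189 CPM in Nsd2ΔIE, a log2 fold change of -0.27 (adjusted p = 0.588) with overlapping groups. Of 11 death receptor genes 8 were below 0 (6 with library totals alone), with a median of -0.18, and all 7 mitochondrial partners lay between -0.26 and 0.053. Of 9 genes from ER stress to apoptosis 8 were below 0 (5 with library totals alone), with a median of -0.18. Ddit3, which encodes CHOP, the factor that can induce Bcl2l11 and repress Bcl2 under ER stress, lay between 16.5 and 19.8 CPM in Nsd2fl/fl and between 15.5 and 16.3 CPM in Nsd2ΔIE. The fitted log2 change was -0.18 (adjusted p = 0.634), although the groups did not overlap by CPM. By deposited FPKM they overlapped, with 6.08 in Nsd2fl/fl replicate 3 and 6.48 to 6.59 in Nsd2ΔIE. Among the other BCL2 relatives, Bcl2l10 and Hrk had at most 1 count in a library and were not tested, Bcl2a1c was not analysed here, and reads of Bcl2a1a, Bcl2a1b and Bcl2a1d could have been split between near-identical copies.

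**Figure D5:**
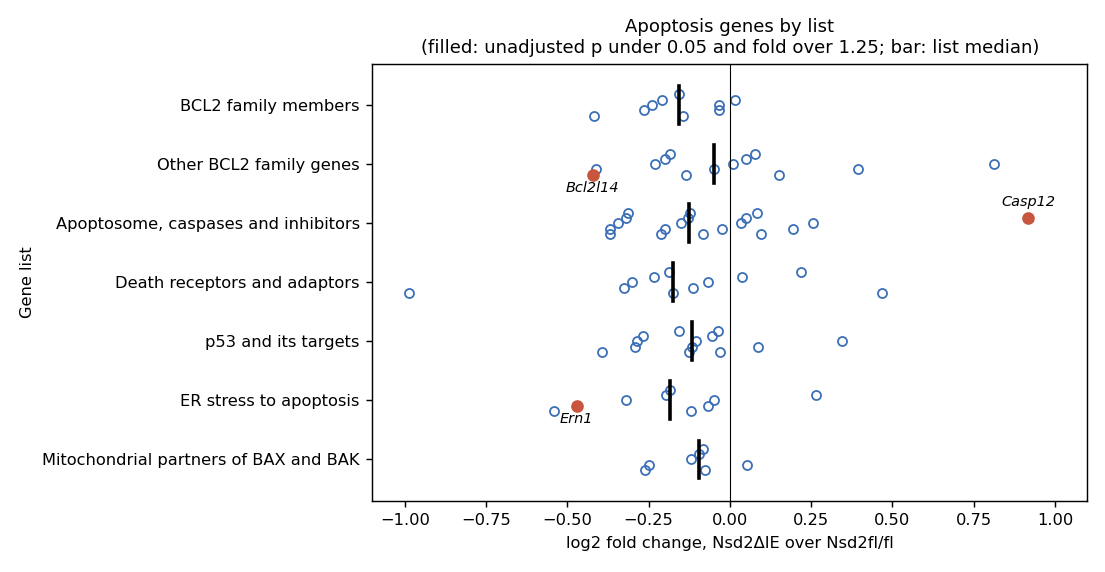
Log2 fold change, Nsd2ΔIE over Nsd2fl/fl, of the 9 tested members and of 73 other apoptosis genes in 6 lists. Each circle is a gene (1 of the 73 is not drawn), filled where it passed the threshold of the study, and black bars are list medians. Casp12, Bcl2l14 and Ern1 are filled and no BCL2 family member is.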

How the data were processed

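Colon RNA-seq from 3 Nsd2fl/fl and 3 Nsd2ΔIE libraries was analysed, with groups and replicate numbers from the labels. Per the labels, fastp, HISAT2, HTSeq, R 3.2.0 and mm10 were used, while the annotation and strand setting are not given in the sources used here. The authors deposited whole-number counts per gene symbol and FPKM values. Dividing counts by FPKM gave 1 whole-number length per gene (17863 genes with no zero, within 0.0638 bases). Libraries were distinct, with a chi-square over degrees of freedom of at least 35.5 for each pair.

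Counts were filtered with filterByExpr, scaled by TMM and tested with the quasi-likelihood test of edgeR 4.0.16 (two-sided, no covariates) in R 4.3.3. Adjustment was by Benjamini and Hochberg over 16347 genes, and 95% intervals used the standard error and degrees of freedom of the test. The common dispersion was 0.0967. The fit was tested on simulated counts. Alternatives were RLE and upper-quartile factors, library totals, DESeq2 1.42.0, voom and log2(FPKM + 1) or log2(FPKM + 0.1) in limma 3.58.1, no filter, a replicate block, a principal component covariate, a fold change of 1.5 and leaving out each library. Log2 CPM used a prior count of 2. Positions, exon lengths and overlaps came from GENCODE M21 (GRCm38). The members and lists were chosen with earlier results of these data known. Named were all members, Nsd2, genes of the pathway lists past the threshold of the study, and the 3 genes (mean log2 CPM of at least 1) nearest in pattern to the 2 members of widest range. Every other gene named was chosen after its values were seen. Protein sequences were not used here, and 1 gene of the pathway lists past the threshold is counted but not otherwise reported here.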

Additional observations from a re-analysis of the deposited data

How the results depend on the processing

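The count of members at an adjusted p under 0.05 was 0 in all 16 alternatives, and the count of members higher past the threshold of the study was 0 throughout. The count of lower members was between 0 and 2 when single libraries were left out, with 2 (Mcl1 and Pmaip1) without Nsd2ΔIE replicate 1 and 1 (Bcl2l11) without Nsd2fl/fl replicate 3. Mcl1, Bid, Bbc3 and Pmaip1 kept the sign of their fitted change in all 16 alternatives. The fitted changes of Bcl2, Bcl2l1, Bax, Bak1 and Bcl2l11 reversed in at least 1 alternative. With upper-quartile factors Bcl2 stood at 0.032 and Bcl2l1 at 0.037, with library totals alone at 0.089 and 0.10, with log2(FPKM + 1) at 0.086 and 0.10, and with log2(FPKM + 0.1) at 0.11 and 0.11. Bcl2 stood at 0.14 with the principal component covariate, Bak1 at 0.010 with log2(FPKM + 1) and at 0.011 with log2(FPKM + 0.1), and Bax at -0.016 with no filter. Across the fits without 1 library, Bcl2 ranged from -0.22 to 0.14, Bcl2l1 from -0.14 to 0.14, Bax from -0.051 to 0.084, Bak1 from -0.32 to 0.10 and Bcl2l11 from -0.53 to 0.023. The count of pathway genes past the threshold, 4, was 1 with upper-quartile factors, 8 with the principal component covariate and 1 at a fold threshold of 1.5. When single libraries were left out it was between 1 and 9, with 9 without Nsd2fl/fl replicate 1 or 2, 7 without Nsd2ΔIE replicate 1 and 1 without Nsd2ΔIE replicate 2 or 3. For the stricter threshold its construction is the cause, and otherwise the cause was not tested.

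The replicate number as a block gave 6 pathway genes and 0 members past the threshold. Residuals of same-numbered libraries correlated at 0.501, 0.643 and -0.166, and the samples share only a number. Bcl2l15 had at most 49 counts in a library and the other members at least 169.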
